A study of Mus musculus with 6 samples.

Results

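Odorant receptors, the G-protein-coupled receptors with which olfactory sensory neurons detect volatile molecules, and beta-defensins, small cationic antimicrobial peptides of epithelia, were examined in whole hearts of septic mice. On the array, 1107 probes carried a gene symbol beginning Olfr and 45 one beginning Defb. A probe was kept where every array of 1 or both groups carried the scanner software's call that its spot was well above background, which is what detected means below. The rule left 103 odorant receptor probes and 4 beta-defensin probes, which belong to 106 genes among 22911 genes with a named probe. The members were thus selected on their measured signal in the same 2 groups that are compared below, and their counts and differences in that selection are given as a description.

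Total RNA of whole hearts was labelled with Cy3 and hybridised to 1-colour Agilent mouse expression arrays, 1 array per mouse. The rhTM group was 3 male C57BL6 mice aged 10 weeks, starved for 16 h, injected into the peritoneum with 20 mg/kg lipopolysaccharide (LPS, the outer membrane endotoxin of Gram-negative bacteria) and treated with recombinant human thrombomodulin, an anticoagulant and anti-inflammatory protein, at 3 and 24 h. The saline group was 3 mice of the same strain, sex and age, starved and given LPS in the same way and treated with saline at those times. All hearts were taken 30 h after LPS, and no heart without LPS was analysed here. The comparison asks how hearts of mice given rhTM after LPS differ from hearts of mice given saline.

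Each odorant receptor gene, of a family that is among the biggest of the mouse genome, is normally read in a small share of olfactory neurons, which use a G-protein and cAMP cascade to open a cyclic nucleotide-gated channel. A few of these receptors are also known outside the nose, for instance in vessels, kidney, sperm, skeletal muscle and fat. Beta-defensins lie in gene clusters and are read mainly in skin, airway, gut and epididymal epithelium, where some are induced by bacterial products and by interleukins of the IL-17 and IL-22 type. Neither family is typical of heart muscle.

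The arrays lay on 2 slides. Saline 1 and 2 were on slide 1, scanned on a first day, while saline 3 and all 3 rhTM arrays were on slide 2. Arrays differed in overall brightness, with 75th percentiles of 463, 466 and 412 in rhTM 1, 2 and 3 and 732, 671 and 394 in saline 1, 2 and 3. Values are therefore given in every array, and the difference of the rhTM mean from saline 3, the saline array of the same slide, is given beside the difference from all 3 saline arrays. All 8 cardiomyocyte markers (Myh6, Tnnt2 and others) were well above background on all 6 arrays. Of the 10 olfactory sensory neuron markers, Cnga2 and Rtp2 were detected on all 6 arrays. Gnal was detected on all 3 rhTM arrays and 1 saline array, and Gng13 on 2 rhTM arrays and 1 saline array. Adcy3 was detected on 1 rhTM array and 2 saline arrays, and Omp on 1 saline array alone. Cnga4, Stoml3, Rtp1 and Ano2 were not called well above background on any array.

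The 5 promoters below come from the RefSeq promoter table (GRCm38.p6, 250 bases before to 50 after the listed start). They were chosen after the members' values were seen. In Olfr699 and Olfr1500 the 50 bases after the listed start open with ATG, the letters of a start codon. In Olfr429 ATG comes a few bases after it. The listed start of a receptor gene may thus be that of its coding sequence, not of transcription, which was not tested. Capitals mark the letters TATAAA on either strand, wherever they stand in the window. These are the core letters of the TATA box, which sets the start of transcription when it lies close before it. In Olfr429 the marked stretch stands at the far end of the window from the start. In Defb7 it reads on the other strand. Whether any marked stretch acts as a TATA box was not tested. The 5 promoters are shown because the first 3 genes separated the rhTM arrays from the saline arrays and the last 2 followed the slide. Defb34 and Olfr1375, which also separated the groups, have no entry in the promoter table. Other members that did so are not shown, so no contrast is read from these 5.

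Defb7 promoter (chr8:19494847-19495146, plus strand): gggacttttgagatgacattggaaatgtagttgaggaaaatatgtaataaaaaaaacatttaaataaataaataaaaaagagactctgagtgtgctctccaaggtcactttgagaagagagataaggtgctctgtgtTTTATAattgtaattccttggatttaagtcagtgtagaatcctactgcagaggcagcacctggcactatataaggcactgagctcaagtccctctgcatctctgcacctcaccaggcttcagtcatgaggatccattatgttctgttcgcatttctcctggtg

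Defb15 promoter (chr8:21932661-21932960, minus strand): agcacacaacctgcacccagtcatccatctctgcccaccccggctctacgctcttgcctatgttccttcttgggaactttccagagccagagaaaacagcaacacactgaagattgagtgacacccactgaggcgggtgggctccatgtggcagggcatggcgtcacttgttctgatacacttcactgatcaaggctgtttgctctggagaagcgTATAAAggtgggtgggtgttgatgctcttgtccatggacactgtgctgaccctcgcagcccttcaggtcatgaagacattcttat

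Olfr429 promoter (chr1:174088788-174089087, plus strand): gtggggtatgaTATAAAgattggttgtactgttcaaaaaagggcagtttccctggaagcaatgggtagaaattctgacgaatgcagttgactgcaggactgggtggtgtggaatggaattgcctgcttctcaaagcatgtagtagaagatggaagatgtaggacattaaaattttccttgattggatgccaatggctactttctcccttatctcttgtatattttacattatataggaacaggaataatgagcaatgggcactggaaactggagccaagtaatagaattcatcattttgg

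Olfr699 promoter (chr7:106790950-106791249, minus strand): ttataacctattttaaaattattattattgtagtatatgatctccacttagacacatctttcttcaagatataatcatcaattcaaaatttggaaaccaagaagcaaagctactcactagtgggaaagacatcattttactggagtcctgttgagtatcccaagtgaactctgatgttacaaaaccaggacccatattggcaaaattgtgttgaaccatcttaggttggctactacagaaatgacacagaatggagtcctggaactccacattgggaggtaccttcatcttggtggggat

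Olfr1500 promoter (chr19:13828345-13828644, minus strand): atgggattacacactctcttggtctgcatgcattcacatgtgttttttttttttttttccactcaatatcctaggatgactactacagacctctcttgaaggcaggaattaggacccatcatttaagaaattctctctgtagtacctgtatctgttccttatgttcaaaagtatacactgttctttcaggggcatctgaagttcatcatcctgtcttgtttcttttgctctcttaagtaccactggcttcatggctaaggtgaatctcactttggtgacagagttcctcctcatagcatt

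The letters TATAAA stood once in the windows of Defb7, Defb15 and Olfr429 and were not in those of Olfr699 and Olfr1500. Among the 91 member genes with an entry, 35.2% of the promoters held TATAAA on either strand, against 41.8% of the 859 promoters of other odorant receptor genes and 13.6% of all 32851 promoters of the table. TAATTA, the core letters bound by homeodomain factors such as Lhx2 and Emx2, stood in 19.8% of member promoters, 18.4% of other odorant receptor promoters and 5.29% of all promoters. The median GC content was 38.0% over the 89 member receptor promoters, 35.0% over the other receptor promoters and 52.7% over all promoters. These shares are a description of windows around the listed starts, with no test. For receptor genes those starts may not be starts of transcription.

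Few probes of either family were detected. The shares were 9.30% of odorant receptor probes and 8.89% of beta-defensin probes, against 63.4% of all probes with a symbol. Other sensory and epithelial families had shares of 10.4% (Vmn1r, vomeronasal receptors of the first class), 2.83% (Vmn2r, of the second class), 8.57% (Tas2r, bitter taste receptors), 7.14% (Taar, trace amine receptors), 9.09% (Defa, alpha-defensins) and 40.0% (Krtap, keratin-associated proteins). Across the family, 804 odorant receptor probes and 36 beta-defensin probes were detected on 0 of the 6 arrays. By array, 16.7%, 16.4% and 11.8% of odorant receptor probes were well above background in rhTM 1, 2 and 3, against 9.67%, 11.1% and 10.0% in saline 1, 2 and 3. All 3 rhTM arrays had more detected receptor probes than all 3 saline arrays, with rhTM 3 closest to the saline arrays. Detection over all probes was 61.1%, 58.8% and 55.1% in rhTM 1, 2 and 3 and 54.7%, 57.0% and 52.8% in saline 1, 2 and 3, so rhTM 1 and 2 were also the arrays with the highest share overall. An exact two-sided permutation test on 3 against 3 arrays cannot give a p below 0.1, and none was run on these shares.

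**Figure D1:**
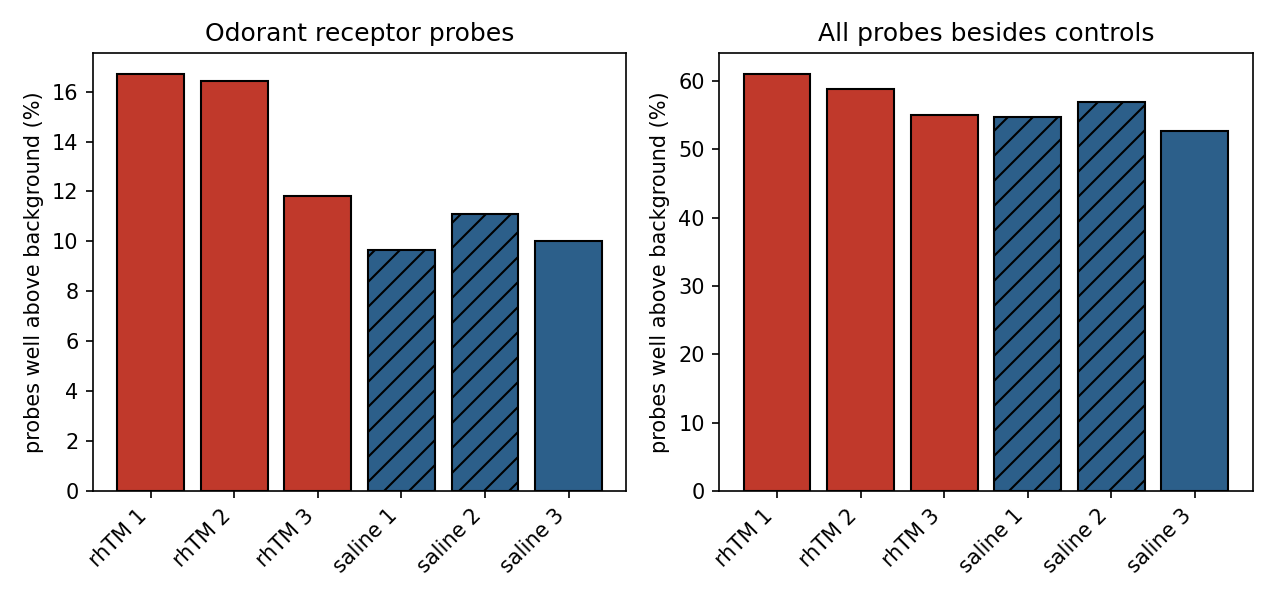
Share of probes well above background on each array (percent, bars from 0) for odorant receptor probes (left) and all probes besides controls (right); hatched bars are slide 1, plain bars slide 2. The rhTM arrays reached 11.8% to 16.7% of odorant receptor probes and the saline arrays 9.67% to 11.1%, while the shares over all probes overlapped between the groups.

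Of the members, 65 were well above background on all 6 arrays, 64 of them odorant receptors and the other Defb25. The rhTM arrays alone carried the selection of 35 members, of which 8 were detected on 0 saline arrays, 19 on 1 and 8 on 2. The saline arrays alone carried 7 members, 6 of them detected on 2 rhTM arrays and 1, Olfr224, on 0. Over the whole array the same rule kept 30471 probes, those with outlier flags included. Of these, 27030 were detected on all 6 arrays, 2625 were carried by the rhTM arrays alone and 816 by the saline arrays alone. Selection through the rhTM arrays alone was thus the more frequent kind over all probes too. Just inside the rule stood 9 probes detected on 3 arrays in all, for example Olfr1036 with signals of 34.5, 28.6 and 23.9 in rhTM 1, 2 and 3 and 21.5, 16.1 and 16.0 in saline 1, 2 and 3. Just outside stood 56 probes detected on 2 arrays of a group. Among these, Olfr1354 had signals of 3.20, 100.4 and 129 in rhTM 1, 2 and 3 and 5.70, 4.58 and 4.73 in saline 1, 2 and 3. Defb48 had 2.67, 105.9 and 85.4 in rhTM 1, 2 and 3 and 5.31, 4.596 and 4.06 in saline 1, 2 and 3. Both were high on rhTM 2 and 3 alone, and rhTM 1 was at the saline level.

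Detected receptor probes were mostly dim. Of the 102 odorant receptor members without an outlier flag, 59 stayed under a processed signal of 100 on every array and 9 passed 500 on at least 1 array. Their mean signal had a median of 47.2 and a maximum of 2484, while the lowest signal of any probe called well above background was 12.5 to 23.5 depending on the array. The 1 member with an outlier flag, Olfr921, had signals of 19.7, 30.5 and 638 in rhTM 1, 2 and 3 and 87.4, 56.3 and 45.6 in saline 1, 2 and 3. Its spot on rhTM 3 carried the flag, as did those of Neto1, with 2690 on rhTM 3 against 3.15 and 5.47 on rhTM 1 and 2, and of other neighbouring spots. Olfr921 was left out of the fits.

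Of the beta-defensins, 3 of the 4 members were bright on rhTM arrays and near the background on saline arrays. Defb7 had signals of 324, 371 and 171 in rhTM 1, 2 and 3 and 6.81, 4.53 and 20.8 in saline 1, 2 and 3. Defb34 had 120.2, 116 and 64.9 in rhTM 1, 2 and 3 and 5.36, 4.27 and 5.87 in saline 1, 2 and 3. Defb15 had 109, 123 and 92.8 in rhTM 1, 2 and 3 and 7.19, 6.25 and 5.57 in saline 1, 2 and 3. In each of these genes the rhTM arrays lay above all saline arrays, and no saline array was called well above background. All 3 genes lie on chromosome 8, within the beta-defensin clusters there.

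Defb25, on chromosome 2, was the only beta-defensin detected on all arrays of both groups. Its signals were 53.0, 92.6 and 83.9 in rhTM 1, 2 and 3 and 44.6, 37.5 and 49.5 in saline 1, 2 and 3. On the log2 scale after division by the 75th percentile of each array it was -2.59 ± 0.47 in the rhTM group and -3.73 ± 0.64 in the saline group (SD, n = 3 each), a difference of 1.14 ± 0.39 (SE) with a limma adjusted p of 0.127. Against saline 3 alone the difference was 0.41. The groups overlapped on that scale.

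For the other 3 genes, the fold is a bound against the dimmest signals that could be called. Defb7 was at least 17.0-fold, Defb34 at least 6.15-fold and Defb15 at least 6.83-fold higher with rhTM. This bound sets the mean of the rhTM arrays against, for each saline array, the higher of the probe's own value and the lowest value called well above background. On the log2 scale Defb15 was -2.05 ± 0.12 in the rhTM group and -6.52 ± 0.33 in the saline group (SD, n = 3 each). Defb34 was -2.21 ± 0.40 in the rhTM group and -6.82 ± 0.66 in the saline group. Defb7 was -0.70 ± 0.50 in the rhTM group and -6.07 ± 1.60 in the saline group.

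The fit that no detection rule enters took all 56237 probes. It called 193 of them higher with rhTM, or 0.343%, and 15 lower, or 0.0267% (limma, Benjamini-Hochberg adjusted p under 0.05). Over the 1140 probes of both families it called 4 higher and 0 lower, with 105 higher and 3 lower at an unadjusted p under 0.05. These unadjusted shares were 9.21% higher and 0.263% lower in the families, against 10.95% and 6.31% over all probes. The 4 were Defb15, Defb34, Olfr429 and Olfr957. For Defb15 the adjusted p was 0.0136, and for Defb34 0.0360, the fitted difference being 4.47 ± 0.27 and 4.61 ± 0.40 (SE) on the log2 scale. Defb7 missed the threshold, with a fitted difference of 5.36 ± 0.76 and an adjusted p of 0.0504. Fitted differences of probes not detected in a group use signals not called well above background there and do not replace the bounds. These calls did not hold under either block: with the slide in the unfiltered limma fit the adjusted p was 0.0505 for Defb15, Defb34 and Olfr429, and with the replicate number 0.114 for the same probes. Leaving out rhTM 1, rhTM 2, saline 1 or saline 2 also ended the 4 calls, with limma adjusted p of 0.0736 to 0.134 for Defb15, and no probe of the array was then called. Without rhTM 3 the families had 4 calls higher, and without saline 3 they had 94. Neither blocked fit called any probe of the array, in 56237 tested, although 8306 probes with the slide block and 11327 with the replicate block had an unadjusted p under 0.05.

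Within the slide, saline 3 was not called well above background for these 3 genes either, so the fold against it is again a bound. The rhTM mean was at least 11.6-fold above saline 3 for Defb7, at least 4.42-fold for Defb34 and at least 4.91-fold for Defb15. These bounds rest on 1 saline array. Among detected probes with the slide as a block, limma called 3.30% of all probes higher and 1.41% lower, and of the members Defb7, Defb34, Defb15 and Olfr429 higher and Olfr224 lower. The rule that chose the members used these groups, so nothing is read from those calls.

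In the fit over the 30320 detected probes, 2.24% were called higher with rhTM and 1.33% lower. Of the members, 5 of 106 were called higher: Defb7, Defb34, Defb15, Olfr429 and Olfr1375. No member was called lower by limma. At an unadjusted p under 0.05, limma had 41 members higher and 1 lower, or 38.7% and 0.943%. Over all detected probes these unadjusted shares were 16.2% and 12.6%. The rule that chose the members used this contrast, so nothing is read from those counts. The adjusted p was 0.0272 for Defb7, 0.0139 for Defb34 and 0.00461 for Defb15. With the replicate number as a block, limma gave an adjusted p of 0.0554 for Defb7, which lost its call, and 0.0494 for Defb34 and Defb15.

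**Figure D2:**
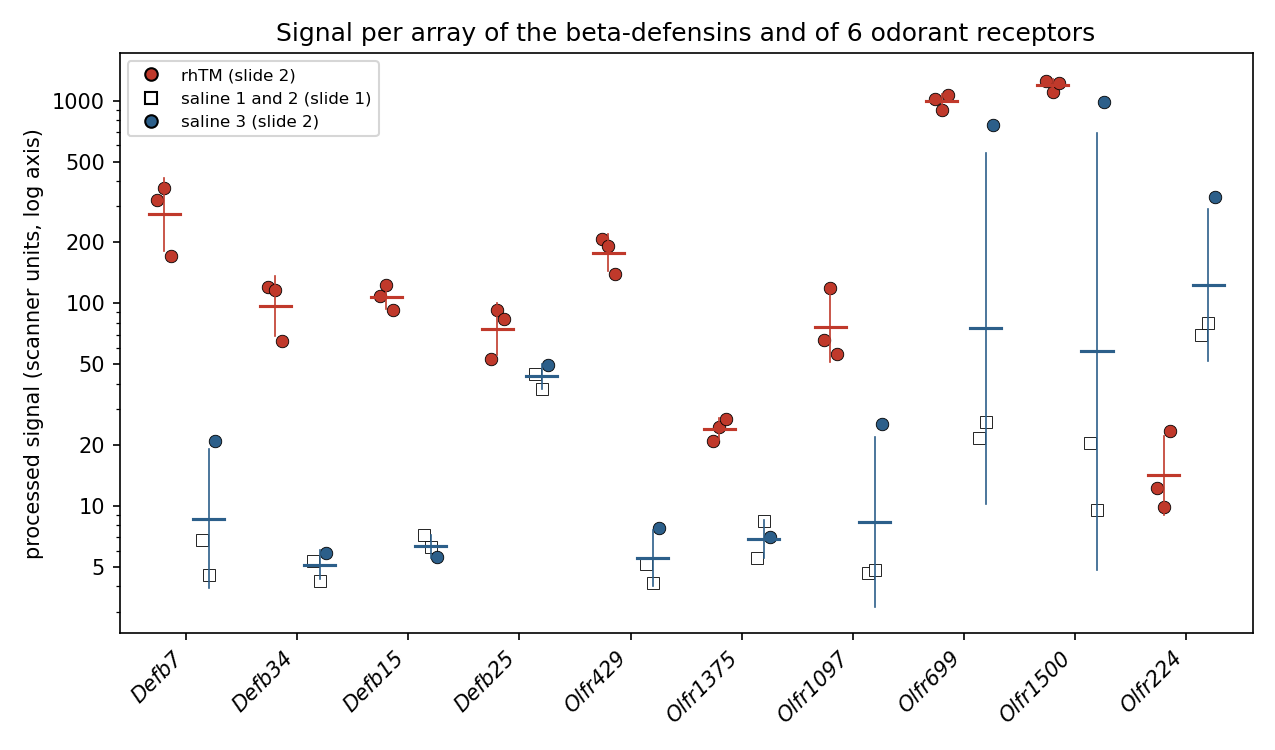
Processed signal (scanner units, log axis) of the 4 beta-defensins and 6 odorant receptors on each array, rhTM left of saline for each gene; filled circles are slide 2, open squares slide 1, horizontal lines the group's geometric mean and vertical lines 1 SD of the log2 signal. Defb7, Defb34, Defb15, Olfr429 and Olfr1375 separated all rhTM arrays from all saline arrays, whereas in Olfr699 and Olfr1500 saline 3 lay with the rhTM arrays.

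The beta-defensins known from epithelia of the mouse were not called well above background. Defb1, which epithelia express without induction, had signals of 2.62, 3.43 and 4.24 in rhTM 1, 2 and 3 and 4.95, 3.93 and 15.4 in saline 1, 2 and 3. Defb4 had 2.90, 3.75 and 4.49 in rhTM 1, 2 and 3 and 5.55, 4.64 and 4.63 in saline 1, 2 and 3. Neither these probes nor those of Defb2, Defb3 and Defb14 were detected on any array.

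Odorant receptors showed several array patterns that did not follow one direction. Olfr429 followed the groups. Its signals were 208, 192 and 140.1 in rhTM 1, 2 and 3 and 5.14, 4.17 and 7.78 in saline 1, 2 and 3. No saline array was called well above background, and the bound was at least 11.3-fold higher with rhTM. In the unfiltered limma fit the difference was 5.38 ± 0.47 (SE) on the log2 scale with an adjusted p of 0.0360, and against saline 3, where it was not detected, the bound was at least 8.10-fold. Among detected probes the adjusted p was 0.0139, and with the replicate block 0.0494. Olfr430, the neighbouring receptor gene on chromosome 1, differed by 0.64 with an adjusted p of 0.293 in the fit of detected probes.

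Olfr957 followed the groups too, at lower signals, and is no member because only 2 rhTM arrays were well above background. It had 36.2, 26.7 and 15.5 in rhTM 1, 2 and 3 and 5.96, 4.74 and 4.56 in saline 1, 2 and 3. The unfiltered limma fit gave 2.66 ± 0.36 (SE) and an adjusted p of 0.0476, and 0.127 with the slide as a block. Olfr1375 had 20.9, 24.5 and 26.8 in rhTM 1, 2 and 3 and 5.50, 8.39 and 6.99 in saline 1, 2 and 3. Its bound was at least 1.52-fold, and at least 1.09-fold against saline 3, its adjusted p 0.0333 among detected probes and 0.0735 in the unfiltered fit. With the slide as a block its adjusted p was 0.0647 among detected probes.

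Olfr1500 and Olfr699 followed the slide. Olfr1500 had 1255, 1107 and 1217 in rhTM 1, 2 and 3 and 20.5, 9.56 and 984 in saline 1, 2 and 3. Olfr699 had 1023, 903 and 1060.2 in rhTM 1, 2 and 3 and 21.6, 25.9 and 753 in saline 1, 2 and 3. Saline 3 was nearly as bright as the rhTM arrays in both, while saline 1 and 2 were dim. The difference from all saline arrays was 4.74 ± 1.81 (SE) for Olfr1500 and 4.10 ± 1.51 for Olfr699, and neither passed the limma test (adjusted p 0.149 and 0.141). Against saline 3 alone the differences were 0.10 and 0.22.

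Olfr1097 showed the same order in part. It had 65.6, 119 and 56.0 in rhTM 1, 2 and 3 and 4.67, 4.84 and 25.4 in saline 1, 2 and 3, so that saline 3 lay between the rhTM arrays and saline 1 and 2. Its difference was 3.57 ± 0.88 (SE) with a limma adjusted p of 0.0726, and 1.40 against saline 3.

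Olfr224 ran the other way. It had 12.2, 9.82 and 23.4 in rhTM 1, 2 and 3 and 69.9, 79.6 and 333 in saline 1, 2 and 3. No rhTM array was called well above background, and the bound was at least 5.62-fold lower with rhTM. The difference was -2.75 ± 0.86 (SE) with a limma adjusted p of 0.108, and against saline 3 the bound was at least 22.4-fold lower. In the unfiltered slide block the adjusted p was 0.0671. Saline 3 was the highest array, so that its value sets the size of the difference within the slide.

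The remaining receptors named by the size of their difference were closer to the spread between arrays. Olfr933, Olfr954, Olfr661, Olfr1008 and Olfr738 differed by 1.89, 2.14, 1.99, 1.95 and 1.75 on the log2 scale, with limma adjusted p of 0.0641 to 0.143. Against saline 3 the differences of Olfr954, Olfr661, Olfr1008 and Olfr738 were 0.20, 0.34, 0.85 and 0.37, and Olfr933, not detected on saline 3, was at least 1.64-fold higher. Olfr1008 was the brightest of these, with 386, 422 and 276 in rhTM 1, 2 and 3 and 114, 85.3 and 174 in saline 1, 2 and 3. The lowest differences after Olfr224 were those of Olfr1383, Olfr821, Olfr960, Olfr874 and Olfr1368, at -0.46, -0.45, -0.40, -0.38 and -0.29, with adjusted p of 0.288 to 0.589.

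The brightest receptor probes were found on every array. Olfr571 had 3506, 3462 and 2893 in rhTM 1, 2 and 3 and 1455, 1374 and 2214 in saline 1, 2 and 3. Its difference was 1.37 ± 0.42 (SE) with a limma adjusted p of 0.104, and 0.39 against saline 3. Olfr544, a receptor of mouse fat and liver that responds to azelaic acid, had 2746, 1989.9 and 3168 in rhTM 1, 2 and 3 and 1369, 1595 and 2864 in saline 1, 2 and 3. The difference was 0.86 ± 0.53 (SE, adjusted p 0.306), and -0.33 against saline 3, so its direction turned within the slide.

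Olfr722 and Olfr1466 turned in the same way. Olfr722 had 787, 628 and 1187 in rhTM 1, 2 and 3 and 283, 265 and 1159 in saline 1, 2 and 3, a difference of 1.29 from all saline arrays and -0.65 from saline 3. For Olfr1466 these differences were 0.86 and -0.32. Olfr373 differed by 0.97 ± 0.34 (SE, limma adjusted p 0.132) and by 0.45 against saline 3, and Olfr1368, with 914, 773 and 599.6 in rhTM 1, 2 and 3 and 1391, 1244 and 974 in saline 1, 2 and 3, by -0.29 and -0.55. None of the 6 brightest receptors passed the test.

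**Figure D3:**
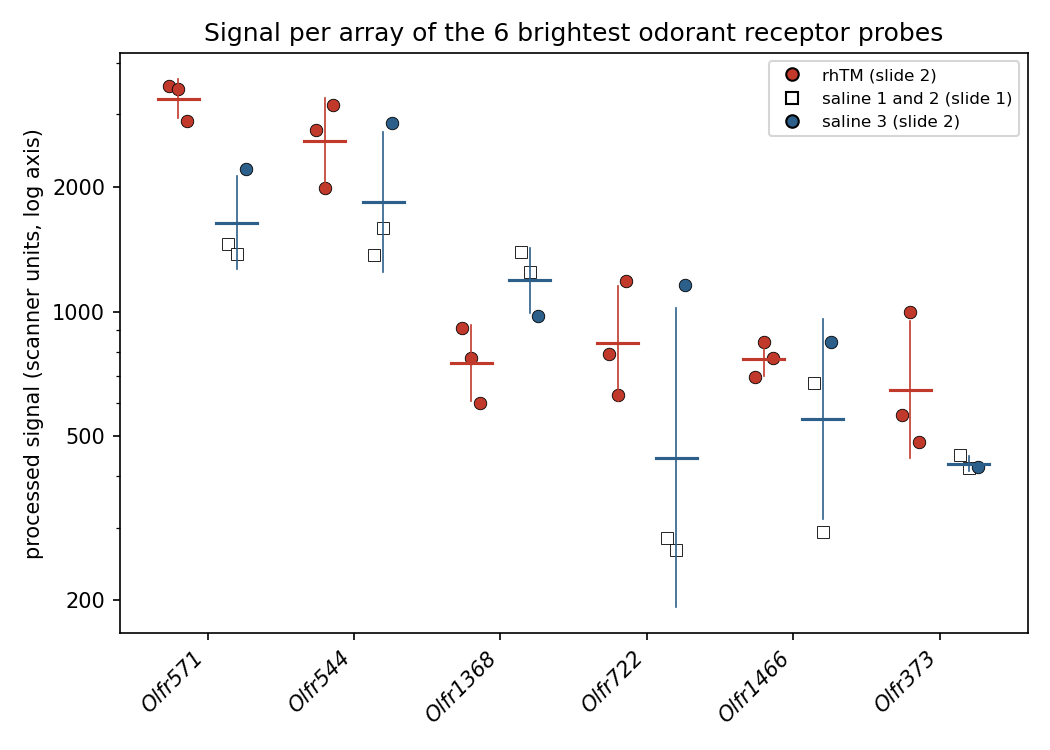
Processed signal (scanner units, log axis) of the 6 odorant receptor probes with the highest mean normalised value, on each array, rhTM left of saline; filled circles are slide 2, open squares slide 1, horizontal lines the geometric mean and vertical lines 1 SD of the log2 signal. In Olfr722 and Olfr544 saline 3 lay near the rhTM arrays, at 1159 and 2864, and above saline 1 and 2.

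Of the receptors known outside the nose, Olfr544 and Olfr558 were members. Olfr558, the mouse counterpart of human OR51E1, a fatty acid receptor of vessels, had 117, 137 and 67.5 in rhTM 1, 2 and 3 and 85.8, 58.7 and 55.7 in saline 1, 2 and 3. Its difference was 1.02 ± 0.30 (SE, limma adjusted p 0.0997), and 0.70 against saline 3. Olfr78, the counterpart of OR51E2, a short-chain fatty acid receptor of kidney and carotid body, had 31.2, 24.2 and 8.12 in rhTM 1, 2 and 3 and 15.8, 25.6 and 8.26 in saline 1, 2 and 3, and was no member. Olfr16, a receptor of sperm and muscle, was not detected on any array.

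As a group, the 102 odorant receptor members with a value lay above saline on the main scale and close to it within the slide. The difference was positive in 88 and negative in 14, with a median of 0.70, against a median of 0.08 over all detected probes. Against saline 3 alone 57 were positive and 45 negative, with a median of 0.08 against 0.03 over all detected probes, and saline 3 was not well above background for 11 of them. Members at least 2-fold higher numbered 31 against all saline arrays and 5 against saline 3. Members at least 2-fold lower numbered 1 and 4. The matching counts over all detected probes were not made, so nothing is read from these numbers. Since a probe could enter through the group in which it was high, the 63 receptor members detected on all 6 arrays are given apart. Their median difference was 0.53, against 0.04 over all 26916 such probes, and 0.06 against saline 3. Detected probes of the comparison families, kept by the same rule, also had medians above 0 against all saline arrays. These were 0.60 for 18 Vmn1r, 0.58 for 22 Krtap, 0.86 for 3 Tas2r and 1.36 for 3 Vmn2r probes. The 2 Defa probes had a median of 3.39, and the 1 Taar probe differed by 1.42. Against saline 3 alone the values were -0.04 (Vmn1r), -0.42 (Krtap), 0.04 (Tas2r), 0.33 (Vmn2r), 2.32 (Defa) and 1.00 (Taar).

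Saline 3 also stood apart from saline 1 and 2 in the odorant receptor members. It lay above both in 88 of the 102 receptor members and below both in 7. The matching counts over all detected probes were not made, so nothing is read from these 2 counts. The median of saline 3 minus the mean of saline 1 and 2 was 0.89, against 0.04 over all detected probes. All 4 slide 2 arrays lay above both slide 1 arrays in 79 of the 102, against 29.1% of all detected probes. After scaling, all 3 rhTM arrays lay above all 3 saline arrays in 34 of 102 receptor members and 3 of 4 beta-defensins, where the share over all detected probes was 18.3%. The opposite order was found in Olfr1115 and Olfr224 alone, against 15.8% of all detected probes. Without saline 3, limma called 64 receptor members and all 4 beta-defensins higher, where 23.6% of all detected probes were called higher. Slide 2 held 1 saline array, so for the saline group the slide and the mouse cannot be told apart.

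**Figure D4:**
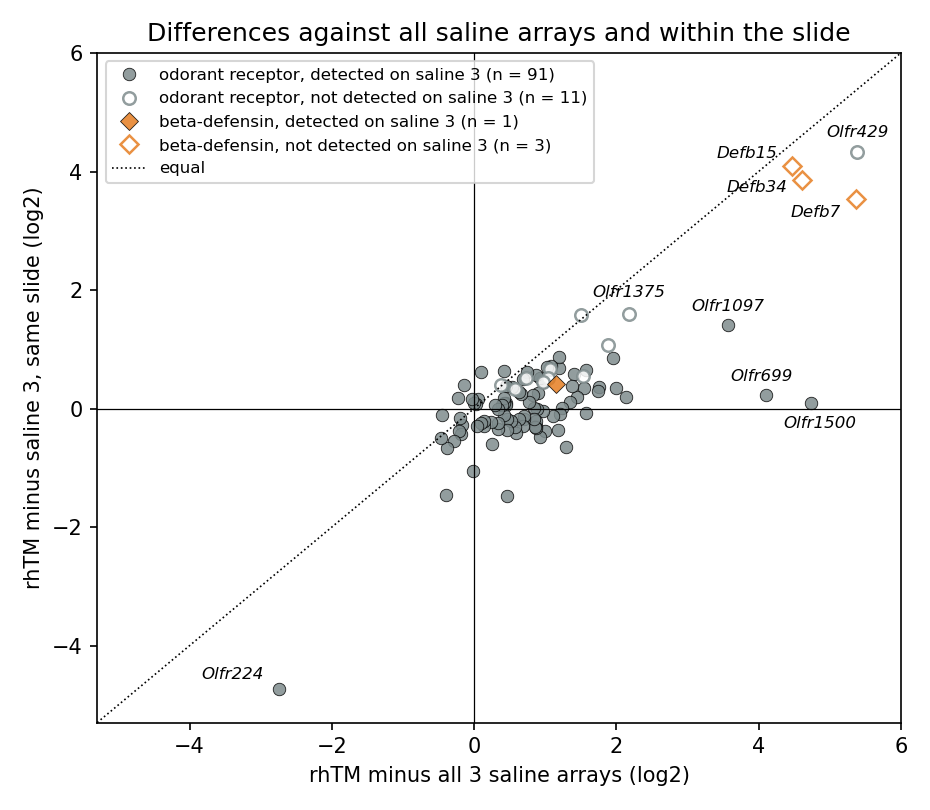
Difference of the rhTM mean from all 3 saline arrays (horizontal, log2) against the difference from saline 3, the saline array of the same slide (vertical, log2), 1 point for each of 102 odorant receptor and 4 beta-defensin probes; open symbols are probes not detected on saline 3, and the dotted line marks equal values. Most receptor probes lay right of 0 and about 0 on the vertical axis, with medians of 0.70 and 0.08. The open symbols of Defb7, Defb34, Defb15 and Olfr429 at top right use a saline 3 signal not called well above background, so their folds are bounds.

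The receptor medians moved with the scaling. Without scaling between arrays, 74 receptor members were positive and 28 negative with a median of 0.33, while the median of all detected probes was -0.29, a shift that follows from the 75th percentiles (-0.37 on the log2 scale). The receptor median was 0.45 after quantile normalisation and 0.10 after normexp background correction, where all detected probes had medians of -0.03 and -0.03. Over the whole family with no filter, the median difference was 0.05 for odorant receptor probes and 0.05 for beta-defensin probes, against 0.05 over all probes of the array. Against saline 3 the same medians were -0.38 for odorant receptor probes and -0.40 for beta-defensin probes, against -0.11 over all probes.

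Probes of the same gene could be compared for 6 member genes, of 29 genes of the families with 2 or more probes. Olfr1372-ps1, a pseudogene, was the gene with 2 member probes, and they gave -0.22 and -0.03. In the other 5 genes the second probe was not a member. That probe was not called well above background on any array in Olfr1036, Olfr1115, Olfr681 and Olfr1333. Its difference there is one of signals too dim to be called, so it cannot show whether the probes agree. Olfr1036 gave 1.07 by the member probe and 0.72 by its other probe, and Olfr1115 gave -0.20 and -0.01. In Olfr681 the member probe gave 1.74 and the other 0.29, and in Olfr1333 0.38 and -0.03.

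Olfr1097 had the widest gap, 3.57 by the member probe and -0.40 by the other. The other probe read 2.71, 27.0 and 4.47 in rhTM 1, 2 and 3 and 89.0, 4.42 and 4.13 in saline 1, 2 and 3, so that rhTM 2 and saline 1 were high. Defb7, Defb34, Defb15, Olfr429, Olfr1500, Olfr699 and Olfr224 had 1 probe each. Whether a probe also bound related members of its family was not tested.

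**Figure D5:**
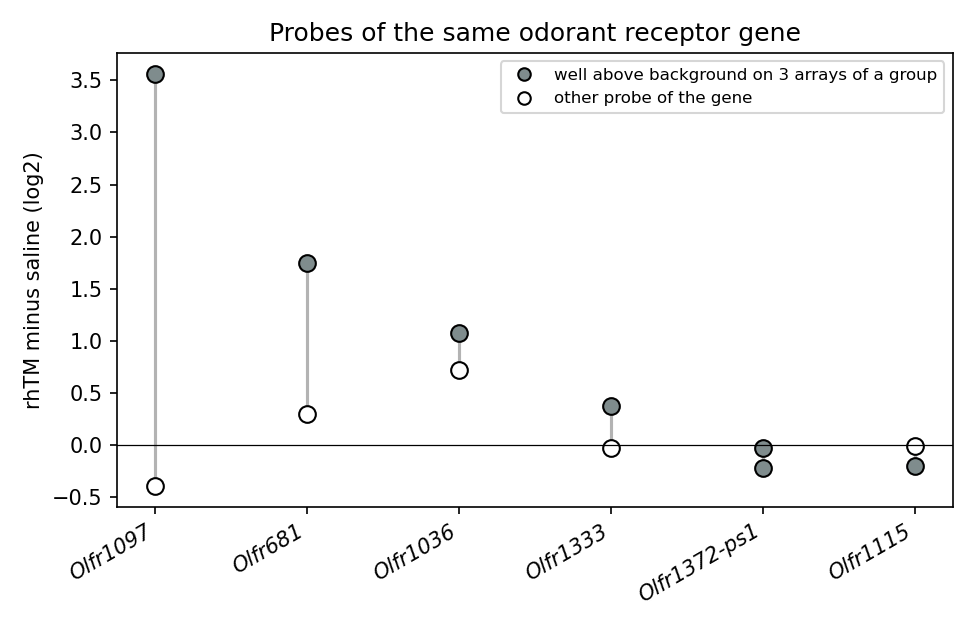
Difference between rhTM and saline (log2) of each probe of the 6 odorant receptor genes that have a member and 2 or more probes; filled points are probes well above background on 3 arrays of a group, open points the gene's other probes, and grey lines join probes of a gene. The probes of Olfr1097 stood at 3.57 and -0.40, and those of Olfr1115 and Olfr1372-ps1 within about 0.2 of each other. The open points of Olfr1036, Olfr1115, Olfr681 and Olfr1333 are probes not called well above background on any array.

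Members were spread over the odorant receptor clusters. Chromosome 7 held 28 members among 238 receptor probes, or 11.8%, and chromosome 2 held 20 among 289, or 6.92%. In the RefSeq gene order, 11 pairs of member genes were direct neighbours. The gap between the differences of neighbours had a median of 0.55 and a maximum of 4.75, in Olfr429 and Olfr430. Olfr699 differed by 4.10 and its neighbour Olfr700 by -0.17.

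The genes that olfactory neurons use to read these receptors were examined next. Of 23 genes of odorant signalling and receptor trafficking, 13 were tested, and limma called none in either direction, with 3 higher and 0 lower at an unadjusted p under 0.05. With 2.24% and 1.33% of all detected probes called, and 16.2% higher and 12.6% lower without adjustment, a count of 0 among 13 is near the background. The median difference was 0.35. Cnga2, a subunit of the olfactory cyclic nucleotide-gated channel, had 55.5, 55.9 and 34.3 in rhTM 1, 2 and 3 and 32.9, 38.1 and 32.0 in saline 1, 2 and 3. Gnal, the olfactory G-protein alpha subunit, had 15.4, 251 and 23.3 in rhTM 1, 2 and 3 and 23.5, 12.6 and 35.7 in saline 1, 2 and 3, with rhTM 2 alone high. Rtp4, a receptor transporter that interferon also induces, was bright throughout and differed by -0.43 ± 0.34 (SE, adjusted p 0.416). Lhx2 and Emx2, homeodomain factors of olfactory neurons, were not detected on any array.

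Of 15 genes listed for beta-defensin induction and receptors, 13 were tested, and limma called 1 higher and 1 lower. The list includes Camp, which encodes another antimicrobial peptide. Over all detected probes 2.24% were called higher and 1.33% lower. At an unadjusted p under 0.05, limma had 2 of the 13 higher and 6 lower, or 15.4% and 46.2%. Over all detected probes these unadjusted shares were 16.2% and 12.6%. Il22ra1, a chain of the IL-22 receptor, had 14165, 13807 and 7417 in rhTM 1, 2 and 3 and 655, 455 and 1170.2 in saline 1, 2 and 3. It rose by 4.38 ± 0.57 (SE) on the log2 scale with a limma adjusted p of 0.0236, and by 3.095 against saline 3 (adjusted p 0.0238), but with the replicate block the adjusted p was 0.0511. Myd88, the adaptor of Toll-like receptors, had 681, 656 and 1136 in rhTM 1, 2 and 3 and 4016, 3532 and 1917 in saline 1, 2 and 3, a difference of -1.54 ± 0.30 with an adjusted p of 0.0471. That call did not hold with the slide (0.0997) or the replicate number (0.0683) as a block. Ccr2, a chemokine receptor that some beta-defensins bind, differed by 2.82 ± 0.62 with an adjusted p of 0.0587, 0.0494 with the replicate block and 0.164 with the slide block. The median of the 13 was -0.93, and 9 of them were below 0.

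Markers of other cell types are given by their sums. The summed level of the 10 olfactory neuron markers was taken relative to the 75th percentile of the array. It was 0.424 to 0.945 in the rhTM group and 0.377 to 0.480 in the saline group. The highest value was that of rhTM 2, where Gnal had a signal of 251 against 15.4 and 23.3 in rhTM 1 and 3. The cardiomyocyte markers summed to 2660 to 3710 in the rhTM group and 1880 to 2608 in the saline group. Of 9 epididymal markers, 6 (Crisp1, Lcn5, Lcn8, Lcn9, Adam7 and Cst11) were not detected on any array. Rnase10 was detected on all 6 arrays, Adam28 on all 3 rhTM arrays and 1 saline array, and Spag11a on 1 saline array alone. The sum of the 9 epididymal markers was 0.485 to 0.524 in the rhTM group and 0.255 to 12.3 in the saline group. The highest value was that of saline 1, where Adam28 had a signal of 8805 against 10.8 in saline 2 and 15.1 in saline 3. The keratin and airway markers summed to 0.627 to 1.33 in the rhTM group and 0.623 to 5.43 in the saline group, with the highest value in saline 2. Krt8 and Krt18 were detected on all 6 arrays, with Krt18 at 185 to 416 in the rhTM group and 151 to 2122 in the saline group, while Epcam and Cdh1 were not detected on any array. The neutrophil markers, of which 5 of 6 had a probe, summed to 6.87 to 402 in the rhTM group and 55.4 to 912 in the saline group. These sums followed mainly S100a8 and S100a9, and in the rhTM group S100a9 had 2208, 564 and 105189 in rhTM 1, 2 and 3. The markers did not share a direction. S100a8, S100a9, Ngp and Mpo differed by -3.40, -3.52, -4.14 and -0.14 and Elane by 2.01, with limma adjusted p of 0.0940 to 0.856. The part of these cell types in the members' values was not tested, and in whole hearts fewer cells of a type and less RNA per cell cannot be told apart.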

How the data were processed

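Per the file headers, the scanner files hold intensity values that the authors deposited from Agilent Feature Extraction (version 10.7.3.1, grid build mm9), background-corrected within each array and not normalised between arrays; per the submitters' processing notes the version is 9.1. In the deposited value table the authors give log2 values, whose baseline differs between slides and is not given in the sources used here. Here each array's log2 processed signals were reduced by their 75th percentile. Spots of 1 probe were averaged, control spots were dropped, and outlier flags removed 368 of 56605 probes. Probes were named through their accession in RefSeq (GRCm38.p6): 32994 had a symbol and 23611 had none. Fits used limma 3.58.1 in R 4.3.3 on 6 arrays, with Benjamini-Hochberg adjustment over 30320 detected probes or over all 56237, and were tested on simulated data. Precision is limited by the number of arrays. The labels describe separate mice and say nothing of how numbers pair them. Same-numbered arrays had correlated deviations from their group means (0.25, 0.23 and 0.34), differently numbered ones -0.34 to 0.28, so fits with the replicate number as a block are given where they change a call. The files hold no mean spot signal, so the normexp alternative, with offset 50, used the median spot and background signals. Other alternatives were the slide as a block, quantile normalisation, centring, the value table, other filters, 1 probe per gene, no scaling (chosen after seeing the data) and leaving out each array. Named probes were all beta-defensin members, the 10 receptor members with the highest and the 6 with the lowest difference, the 6 brightest, and genes with 2 member probes; Olfr957 and the probes at the edge of the rule were chosen after their values were seen. The members and lists were chosen with earlier results of these data known.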

Additional observations from a re-analysis of the deposited data

How the results depend on the processing

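Main counts were 5 members higher and 0 lower, and, with no filter, 4 probes of both families higher and 0 lower. Members called higher numbered 2 with normexp, 10 with the deposited value table, 3 with no filter on dim probes and 0 of 64 tested among probes detected on all 6 arrays (21 members at an unadjusted p under 0.05), the fewer probes being part of that setting. The replicate block and the slide block each left 4, the replicate block changing no call of a member but that of Defb7. Members called lower numbered 1 with the slide block and 3 with the value table. Over both families with no filter, calls higher numbered 0 with the slide block, 0 with the replicate block, 2 with normexp and 1 with the value table, and calls lower 1 with the value table. Leaving out 1 array gave 0 to 68 members higher and 0 to 1 lower, and with no filter 0 to 94 higher and 0 to 4 lower. The highest counts came without saline 3, and 0 members were called higher without rhTM 1, rhTM 2, saline 1 or saline 2, where 0 of all detected probes were called and 21 to 27 members had an unadjusted p under 0.05. Over all detected probes the main fit called 678 higher and 402 lower, against 1002 and 428 with the slide block, 233 and 108 with the replicate block, 306 and 234 with normexp, 252 and 207 with no scaling, 3814 and 3665 with the value table, and 7159 and 5066 without saline 3. The share called higher was 62.8% in the main fit, 45.1% with quantile normalisation and 51.0% with the value table. Directions turned for Olfr544 (-0.33 with the slide block, -0.033 with the value table), Olfr1466 (-0.32 and -0.30), Olfr722 (-0.65 and -0.089), Olfr1372-ps1 (0.16 and 0.18 with the slide block, 0.056 and 0.030 with the value table, and from -0.12 without saline 3 to 0.046 without rhTM 3 by 1 probe), Olfr821 (0.45 with the value table) and Olfr960 (from -0.67 without saline 2 to 0.13 without saline 3). With normexp (offset 50), Defb15, Defb34 and Olfr1375 differed by 1.10, 1.14 and 0.09 and lost their call. With the value table Defb15 and Olfr429 differed by 2.11 and 2.12 and lost their call (limma adjusted p 0.0813 and 0.109). The cause of these changes between settings was not tested. Most members lay near the lowest detectable signal, which limits any difference between them.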
